A study of Mus musculus with 4 samples.

Results

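Oxidative phosphorylation subunits are the proteins that make up the mitochondrial respiratory chain and the ATP synthase, and their nuclear genes were followed over 4 groups of mouse stomach cells. Members were the genes of array probe sets annotated with a single symbol that starts with Ndufa, Ndufb, Ndufc, Ndufs, Ndufv, Uqcr or Atp5, with Cox followed by 4 to 8, or that is Sdha, Sdhb, Sdhc or Sdhd. The rule found 89 of 19938 genes, on 114 probe sets, and used no measured value. Of these genes, 81 encode subunits: 34 of complex I, 4 of complex II, 8 of complex III, 18 of complex IV and 17 of complex V. The other 8 encode assembly factors. A further 6 probe sets carry several genes of which 1 fits the rule, and they were left out.

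Affymetrix Mouse Gene 1.0 ST arrays were used to measure RNA in mucous neck cells and zymogenic cells, cut by laser capture from the corpus of adult C57BL/6 mouse stomach. Neck cells make mucus partway down the gland, and zymogenic cells, also called chief cells, store digestive enzymes at its base. Each cell type was taken from wild-type mice and from mice labelled MIST1 knockout (Mist1-/-, written MIST1-null below), which lack MIST1, the product of Bhlha15 and a regulator of secretory cell structure. There was 1 array for each of the 4 groups. The RNA of each array came from pooled dissections of several mice and was amplified before labelling; the design names 4 wild-type and 5 knockout animals in all. Zymogenic cells were recognised by their place below the lectin GS-II signal and by the lack of a parietal cell outline, so no purity beyond that is known. With 1 array per group no difference has a replicate check, no test can be made, and every value below describes these 4 arrays. In captured tissue, fewer cells of a type and less RNA per cell cannot be told apart.

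Complexes I and II pass electrons from NADH and succinate to ubiquinone, complex III passes them on to cytochrome c, and complex IV hands them to oxygen. Complexes I, III and IV pump protons across the inner mitochondrial membrane, and complex V, the ATP synthase, lets them flow back to make ATP. A few catalytic subunits are encoded in mitochondrial DNA, while the members here are encoded in the nucleus, and some complex IV subunits and the ATP synthase c ring come from several genes with different tissue use. In the gastric corpus the acid-secreting parietal cells are the cells best known for their dense mitochondria, since proton secretion uses much ATP, whereas zymogenic cells are known for their rough endoplasmic reticulum and secretory granules.

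Values are deposited array intensities on a linear scale. They are given for each gene in the order wild-type neck, MIST1-null neck, wild-type zymogenic and MIST1-null zymogenic cells. Differences are in log2 units. A gene was called detectable where its mean log2 value over the 4 arrays reached 5.43, an intensity of 43.3, which is the median of all probe sets with 1 gene; 9920 genes did, among them 77 of the 81 subunits and all 8 assembly factors. The 4 subunits below that level were Cox7b2, Ndufa4l2, Cox6a2 and Cox4i2, with mean log2 values of 4.88, 5.00, 5.09 and 5.38, and the nearest above it were Cox8b at 5.47, Cox8c at 5.57 and Cox6b2 at 6.00. The median intensity of an array lay between 37.9 and 40.9. Bhlha15 read 59.7, 20.2, 150 and 22, under the detection level in both knockout arrays. Summed neck cell markers read 9616, 11845, 1839 and 689. Of these, Aqp5 went against its label, at 65.7, 62.5, 95.5 and 92. Summed zymogenic markers read 14285, 14191, 23253 and 24732, with Pgc, the precursor of a pepsin, between 8672 and 10638 on all 4 arrays. Of the zymogenic markers Pga5, another pepsin precursor, went against its label and was higher in both neck arrays.

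Promoter sequences were available in the RefSeq table for GRCm38.p6, as windows from 250 bases before to 50 bases after a gene's start, for 66 of the 81 subunit genes. They were searched on both strands for letters bound by factors known to act on mitochondrial genes. The NRF1 letters (GCGCA, any base, then GCGC) were found in 16 of the 66 genes (24.2%), against 11.3% of the 7904 detectable genes with a window and 15.7% of the genes at or above the 90th percentile of level. YY1 letters AAGATGGC were in 10 (15.2%), against 5.17% and 6.57%. ETS letters CCGGAAGT, which GABPA binds, were in 5 (7.58%), against 8.45% and 10.0%. The ERR letters TCAAGGTCA were in 2 (3.03%), Sdhd and Atp5g3, against 0.354% and 0.271%. TATAAA was in 8 (12.1%), against 9.70% and 8.60%. Over all windows of the table the shares were 4.60% for NRF1, 2.75% for YY1, 3.89% for ETS, 0.423% for ERR and 13.6% for TATAAA. A match is a run of letters and no measured site.

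The 250 bases before the start of 4 genes are shown because they span what was found, from 3 NRF1 matches to none, and because Sdha hardly differed between the wild-type cell types while Cox7a1 had the lowest difference of all subunits; the 4 were chosen after the values were seen. Capitals mark the matches, and positions count back from -1, the base before the start. Sdha, at chr13:74350241-74350490 on the minus strand, has NRF1 letters beginning at -98, -55 and -10. Sdhd, at chr9:50603850-50604099 on the minus strand, has them at -79. Atp5g3, at chr2:73911327-73911576 on the minus strand, has the ERR letters on the other strand at -52. Cox7a1, at chr7:30183921-30184170 on the plus strand, has none of the searched letters. Further matches of Sdhd and Atp5g3 lie past the start and are not shown.
Sdha: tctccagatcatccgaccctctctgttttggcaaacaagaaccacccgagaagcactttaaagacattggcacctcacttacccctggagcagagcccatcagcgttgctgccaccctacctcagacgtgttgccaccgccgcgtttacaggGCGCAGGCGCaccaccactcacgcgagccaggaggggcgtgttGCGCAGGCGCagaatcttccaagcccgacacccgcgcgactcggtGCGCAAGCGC
Sdhd: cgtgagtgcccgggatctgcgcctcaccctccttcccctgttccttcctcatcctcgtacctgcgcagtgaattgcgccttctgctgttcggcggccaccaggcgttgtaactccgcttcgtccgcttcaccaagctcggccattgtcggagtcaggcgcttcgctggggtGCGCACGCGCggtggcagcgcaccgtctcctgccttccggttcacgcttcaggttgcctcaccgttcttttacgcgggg
Atp5g3: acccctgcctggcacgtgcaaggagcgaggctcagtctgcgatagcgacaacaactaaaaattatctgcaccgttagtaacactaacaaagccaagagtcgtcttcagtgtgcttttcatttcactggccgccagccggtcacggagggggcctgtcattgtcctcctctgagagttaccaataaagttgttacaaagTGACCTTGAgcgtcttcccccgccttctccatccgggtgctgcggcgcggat
Cox7a1: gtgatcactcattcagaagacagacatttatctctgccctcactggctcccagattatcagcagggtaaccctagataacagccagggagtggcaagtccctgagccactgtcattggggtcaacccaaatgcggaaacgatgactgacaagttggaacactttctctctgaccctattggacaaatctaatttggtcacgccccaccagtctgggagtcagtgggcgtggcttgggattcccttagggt

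The NRF1 letters were in 6 of 31 windows of complex I genes, 2 of 3 of complex II, 1 of 5 of complex III, 1 of 12 of complex IV and 6 of 15 of complex V. The 16 detectable subunits with them and the 49 without them had like differences. Zymogenic minus neck in wild-type mice had a median of -0.52 with the letters and -0.51 without, and MIST1-null minus wild-type in zymogenic cells had 0.30 and 0.36. The 10 subunits with YY1 letters had medians of -0.35 and 0.18, against -0.52 and 0.36 in the 55 without. The YY1 letters were in 7 of 31 windows of complex I and 3 of 15 of complex V, and in 0 of the other complexes. Subunits with and without them thus differ in their complexes. By complex the genotype median in zymogenic cells was lowest in complex I, at 0.28, and highest in complex III, at 0.70. The part of the complexes in this split was not tested. The genes themselves are scattered: the 81 subunit genes lie on 19 chromosomes, with at most 9 on any of them, and Ndufa1, Ndufb11 and Cox7b are on X.

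Read over the 4 arrays, the subunits stood lowest in wild-type zymogenic cells. The median intensity of the 77 detectable subunits was 1003, 966, 687 and 881. For 61 of 77 subunits the lowest value was that of wild-type zymogenic cells, and for 0 it was the highest. Among all detectable genes 32.2% were lowest there and 27.7% were highest there. Among genes at or above the 90th percentile of level the shares were 38.7% and 22.6%. It was lowest for 24 of 34 subunits of complex I, 3 of 4 of complex II, 7 of 8 of complex III, 11 of 14 of complex IV and 16 of 17 of complex V. The highest array was wild-type neck for 35 of 77 subunits, MIST1-null neck for 24 and MIST1-null zymogenic for 18. Of all detectable genes 20.7%, 23.9% and 27.7% were highest on these arrays. Of genes at or above the 90th percentile the shares were 16.3%, 32.5% and 28.6%. The plot of levels on the 4 arrays shows the dip at the wild-type zymogenic array in each complex. Over all 81 subunits the count lowest there was 62.

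**Figure D1:**
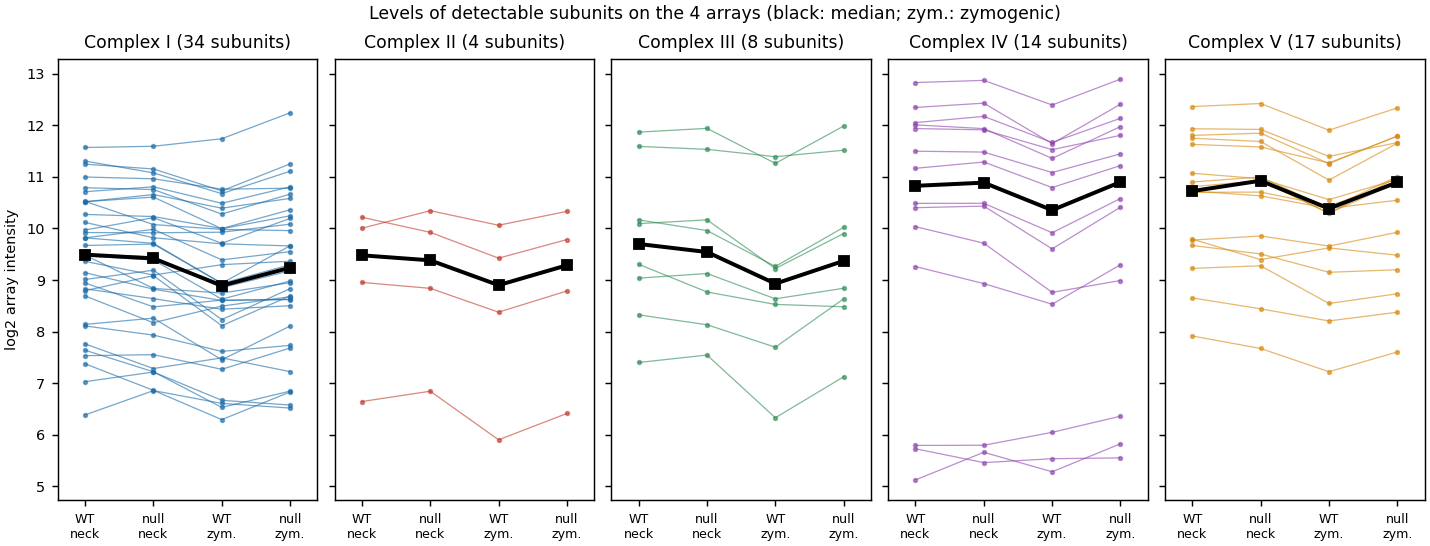
Log2 array intensity of each detectable subunit (thin lines and points) on the 4 arrays, in 5 panels by complex, with the median in black. The medians are lowest in wild-type zymogenic cells in each panel, for example 8.93 for complex III against 9.37 to 9.70 on the other arrays.

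In wild-type mice, zymogenic cells had lower subunit levels than neck cells. The difference was below 0 for 71 of 77 subunits (92.2%), against 50.6% of all detectable genes, with a median of -0.51 against -0.01. At least 1.5-fold lower were 27 subunits (35.1%), against 16.7% of detectable genes, and 0 were 1.5-fold higher, against 13.6%. The shift was broad and mostly under 2-fold: 4 subunits, Cox7a1, Ndufs5, Ndufs8 and Uqcrc1, were at least 2-fold lower, against 6.35% of detectable genes; with a pseudocount of 32, or with detection set at the 90th percentile, only 1, Cox7a1, was. In MIST1-null mice the median was -0.04, with 51 of 77 below 0 (47.4% of detectable genes); 2 subunits were 1.5-fold lower and 1 was 1.5-fold higher, against 11.1% and 11.8%.

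Between genotypes, zymogenic cells without MIST1 had higher levels than wild-type ones for 70 of 77 subunits (90.9%), against 55.0% of detectable genes and 61.0% of those at or above the 90th percentile. The median was 0.36, against 0.06 and 0.11. At least 1.5-fold higher were 17 subunits (22.1%), close to the 15.9% of detectable genes, and 0 were 1.5-fold lower, against 12.3%. The subunits therefore differed by similar, moderate amounts: the SD of the difference over the 77 was 0.26, against 0.60 over all detectable genes. No subunit was 2-fold apart, where 4.71% of detectable genes were 2-fold higher and 3.82% 2-fold lower. In neck cells the genotype median was -0.03 (0.03 with each array centred on its median). There 35 subunits were above 0, against 51.2% of detectable genes, and 42 were below. At 1.5-fold, 0 were higher and 1, Ndufb2, was lower, against 7.24% and 7.71%. Of the genes at or above the 90th percentile 64.5% were above 0, with a median of 0.09. The 66 subunits at that level had 42.4% above 0 and a median of -0.04.

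The wild-type zymogenic array enters both the cell type difference in wild-type mice and the genotype difference in zymogenic cells, so a low value on it lowers the former and raises the latter, and neither supports the other. The genotype differences of the 2 cell types share no array. The difference between them, zymogenic minus neck, had a median of 0.42 and was above 0 for 73 of 77 subunits. Over all detectable genes the median was 0.04, and 5265 of 9920 were above 0. This difference takes in the wild-type zymogenic array as well, and a low value on that array raises it too. With a neck median of -0.03, it largely repeats the genotype difference in zymogenic cells and gives it no separate support. In both cell types 33 subunits were higher in MIST1-null mice, and 37 were higher in zymogenic and lower in neck cells. Another 5 were lower in both, and 2 were lower in zymogenic and higher in neck cells. These joint counts were not made over all detectable genes, so they have no share to be set against and show nothing particular to the subunits. They also turn on neck differences close to 0, whose sign was kept in 59 of 77 subunits over 5 alternatives of processing. Over the 77 subunits the genotype differences of the 2 cell types had a Pearson correlation of 0.35, against 0.16 over the 9920 detectable genes. Both are across genes of the same arrays and a description only.

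**Figure D2:**
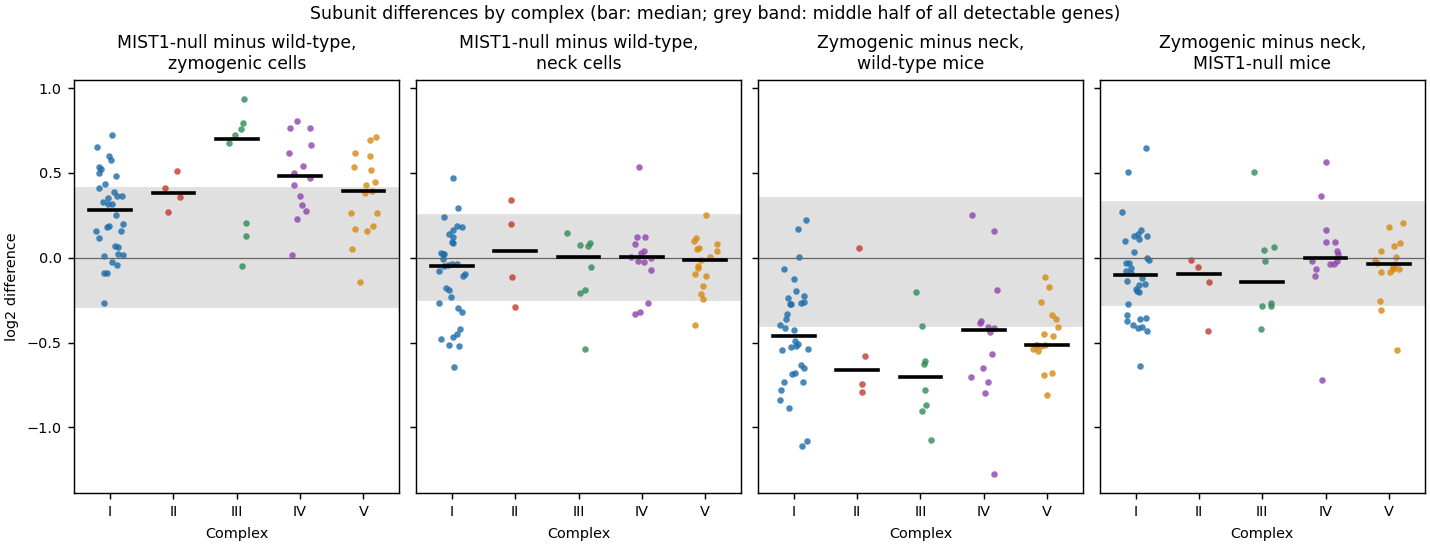
Log2 differences of the detectable subunits in the 4 comparisons, by complex on the horizontal axis; points are subunits, bars medians, and the grey band holds the values from the lower to the upper quartile of all detectable genes. Complex III has the widest shifts by median, 0.70 for genotype in zymogenic cells and -0.70 for cell type in wild-type mice, while the medians lie between -0.14 and 0.04 for genotype in neck cells and cell type in MIST1-null mice.

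Markers of parietal cells were also lowest in wild-type zymogenic cells by their sum. All 13 on the list were detectable, none was at 0, and their summed intensity was 10741, 11867, 5492 and 9759. The proton pump subunits Atp4a and Atp4b, which define the cell, read 3514, 3932, 2278 and 3955, and 2484, 2416, 1202 and 1945. The median difference of the 13 was -1.05 for cell type in wild-type mice, with 12 of 13 below 0, and 0.92 for genotype in zymogenic cells, with 12 of 13 above 0. It was 0.04 for genotype in neck cells and -0.14 for cell type in MIST1-null mice. In the last comparison 9 of 13 markers were below 0 and 4 above. At 1.5-fold, 5 (38.5%) were lower and 1 was higher, against 11.1% and 11.8% of detectable genes. The part of these markers in the subunit differences was not tested, and this holds for each complex below.

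Other markers ran in other orders. Summed endocrine markers read 5754, 3679, 8795 and 12862, fibroblast and smooth muscle markers 511, 359, 1276 and 1409, and surface mucous markers 2108, 1944, 3347 and 3463. Immune markers read 368, 157, 622 and 484, endothelial markers 183, 161, 212 and 211, and the single red blood cell gene measured, Alas2, was under the detection level. Each sum was higher in wild-type zymogenic than in wild-type neck cells, the reverse of the subunits, as was every detectable gene on these lists. The sums also count genes under the detection level. Of the endothelial genes only Cdh5 was detectable, at 46.7 in wild-type neck and 48.9 in wild-type zymogenic cells. The immune gene Cd53, not detectable by its mean, went the other way on these arrays, at 118 and 56.7.

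Complex I takes electrons from NADH through its peripheral arm. The difference of all 6 core subunits measured was below 0 for cell type in wild-type mice and above 0 for genotype in zymogenic cells, with medians of -0.54 and 0.42. Ndufs1, the large iron-sulfur subunit, read 282, 307, 175 and 276, and wild-type zymogenic cells stood apart below 3 similar arrays; the differences were -0.69 for cell type in wild-type mice and 0.65 for genotype in zymogenic cells. Ndufs8, an iron-sulfur subunit of the same arm, read 166, 116, 78.5 and 114. It was highest in wild-type neck cells and lowest in wild-type zymogenic cells, 1.08 log2 units apart, and MIST1-null neck and zymogenic cells had nearly equal values. Ndufv2, the partner of the flavoprotein, read 902, 838, 489 and 629 and was lower in both zymogenic arrays, by 0.88 in wild-type and 0.41 in MIST1-null mice. For the flavoprotein Ndufv1, which binds NADH, the values were 455, 399, 346 and 363, a genotype difference in zymogenic cells of only 0.07. Ndufs7, next to the ubiquinone site, differed in order from the others: at 413, 288, 361 and 409 its lowest array was MIST1-null neck. Ndufs3 read 1003, 1183, 838 and 1172.

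The 28 accessory subunits of complex I, which surround the core and help its assembly, had smaller shifts, with medians of -0.46 for cell type in wild-type mice and 0.23 for genotype in zymogenic cells. Ndufs5 read 199, 149, 92.5 and 115, with both neck arrays above both zymogenic arrays, and was the complex I member furthest down in wild-type zymogenic cells, at -1.11. Ndufa12 read 814, 830, 490 and 811, 3 like values and a low one in wild-type zymogenic cells, and had the largest genotype difference of the complex, 0.73. Ndufb2 read 715, 457, 430 and 494, high in wild-type neck cells alone, which gave the genotype difference of -0.64 in neck cells and -0.73 for cell type in wild-type mice.

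Some accessory subunits did not dip in wild-type zymogenic cells. Ndufa1, a membrane-arm subunit encoded on X, read 3037, 3087, 3416 and 4838; both zymogenic arrays were above both neck arrays, by 0.17 in wild-type and 0.65 in MIST1-null mice. Ndufa8 read 83.6, 116, 97.6 and 91.7 and had the lowest difference between the genotype effects of all subunits, -0.56. Ndufb8 hardly varied, at 969, 966, 973 and 1084. Ndufb3 read 131, 149, 102 and 95.4, lower in both zymogenic arrays. Ndufc1 read 217, 156, 180 and 150, the lowest genotype difference in zymogenic cells at -0.27. The mean of its probe sets gave -0.05 for that difference, and for cell type in wild-type mice they lay 0.67 apart. In all, 11 of the 34 subunits of complex I (32.4%) were 1.5-fold lower in wild-type zymogenic than in neck cells, against 16.7% of detectable genes. In MIST1-null zymogenic cells 3 (8.82%) were 1.5-fold higher than in wild-type ones, below the 15.9% of detectable genes.

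Complex II, succinate dehydrogenase, is also an enzyme of the tricarboxylic acid cycle and has no subunit from mitochondrial DNA. Sdha, the flavoprotein that oxidizes succinate, read 1027, 1300, 1068 and 1288. Its wild-type arrays were alike and both MIST1-null arrays were higher, by 0.34 in neck and 0.27 in zymogenic cells, with a cell type difference of 0.06 in wild-type mice. Sdhb, its iron-sulfur partner, read 1190, 972, 687 and 881, with both neck arrays above both zymogenic arrays, by 0.79 in wild-type and 0.14 in MIST1-null mice.

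The membrane anchors of complex II followed Sdhb rather than Sdha. Sdhc read 496, 458, 332 and 442, and Sdhd read 100, 115, 59.9 and 85.2. For both the wild-type zymogenic array was lowest, at -0.58 and -0.74 against wild-type neck cells. Sdha and Sdhd both carry NRF1 letters in the windows shown above, and their arrays ran in different orders. A link between the letters and the levels was not tested.

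Complex III had the widest shifts by median among the 5 complexes: -0.70 for cell type in wild-type mice and 0.70 for genotype in zymogenic cells, with 6 of 8 subunits at least 1.5-fold lower in the former (16.7% of detectable genes) and 5 of 8 at least 1.5-fold higher in the latter (15.9%). Uqcrc1, a core protein, read 169, 187, 80.5 and 140. Uqcrc2, its partner, read 1092, 1149, 597 and 956. Both were lowest in wild-type zymogenic cells, by -1.07 and -0.87 against wild-type neck cells, and higher in MIST1-null zymogenic cells by 0.79 and 0.68. The Rieske iron-sulfur protein Uqcrfs1, which carries electrons toward cytochrome c1, differed less: at 525, 559, 398 and 458 its differences were -0.40 and 0.20.

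Among the small subunits of complex III, Uqcrq read 321, 281, 208 and 398, lowest in wild-type and highest in MIST1-null zymogenic cells; its 0.94 was the largest genotype difference of all subunits. Uqcr10 read 1148, 995, 614 and 1039, and the hinge protein Uqcrh read 3735, 3926, 2452 and 4051, each with a single low array. Uqcrb, which binds ubiquinone, ranged from 2684 to 3082, within 1.15-fold. Uqcr11 was the exception: at 632, 436, 369 and 357 it was high in wild-type neck cells only and lay -0.05 apart between the zymogenic arrays, while the mean of its probe sets gave 0.26.

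Outside the symbol rule, Cyc1, the cytochrome c1 subunit of complex III, read 310, 286, 152 and 274. It too had 1 low array, with differences of -1.03 for cell type in wild-type mice and 0.85 for genotype in zymogenic cells. Cytochrome c, Cycs, read 1899, 1957, 1244 and 1359 and was lower in both zymogenic arrays.

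In complex IV, cytochrome c oxidase, the 7 main isoforms had medians of -0.65 for cell type in wild-type mice and 0.66 for genotype in zymogenic cells, and near 0 in the other comparisons. Cox6b1 read 5201, 5510, 3199 and 5432, Cox7a2 read 1353, 1382, 778 and 1362, and Cox4i1 read 1434, 1435, 966 and 1530. In each, 3 arrays were within a narrow range and wild-type zymogenic cells were below them, by -0.70, -0.80 and -0.57 against wild-type neck cells. Cox6a1, at 4115, 3914, 2623 and 4020, and Cox8a, at 614, 488, 370 and 629, were also lowest there, and these 5 of 14 complex IV subunits (35.7%) were at least 1.5-fold higher in MIST1-null zymogenic cells, against 15.9% of detectable genes. Cox7b, at 2890, 2855, 2170 and 2789, and Ndufa4, at 3917, 3849, 2952 and 3575, once counted in complex I, had genotype differences of 0.36 and 0.28. The subunits with a single form, Cox5a, Cox5b and Cox6c, were at 0.43 to 0.50, and Cox6c read 7267, 7482, 5374 and 7609. The other probe sets of Cox7b and Cox6c gave genotype differences of 0.62 and 0.66, both above 1.5-fold. The count of 5 and the contrast with the single forms therefore depend on the probe set taken.

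The detectable tissue isoforms did not share the pattern of a low value in wild-type zymogenic cells alone. Cox7a1 and the undetected Cox6a2 did have their lowest value there, as the main isoforms had. Cox7a1, the heart and skeletal muscle isoform of subunit 7a, read 1049, 839, 434 and 509, with both neck arrays far above both zymogenic arrays. Its differences of -1.27 in wild-type and -0.72 in MIST1-null mice were the lowest of all subunits in each genotype, and it alone was at least 1.5-fold lower in both. The genotype difference in zymogenic cells was 0.23, against 0.81 for Cox7a2. By their sums, given above, fibroblast and smooth muscle markers were higher in both zymogenic arrays than in both neck arrays. Their part in the Cox7a1 values was not tested.

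Cox6b2, the testis isoform of subunit 6b, read 55.5, 55.6, 66.2 and 82.2, higher in both zymogenic arrays. Cox8b, of heart and skeletal muscle, read 34.9, 50.6, 39 and 56.7, higher in both MIST1-null arrays by 0.54 each. Cox8c, of testis, stayed between 44 and 53. These 3 lay close to the detection level, and such sizes are not firm there. Of the undetected isoforms, the lung isoform Cox4i2 ranged from 33.5 to 53.3, the muscle isoform Cox6a2 from 27.4 to 46.5, the testis isoform Cox7b2 from 22.8 to 38.3 and the low-oxygen relative Ndufa4l2 from 30.3 to 34.7.

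**Figure D3:**
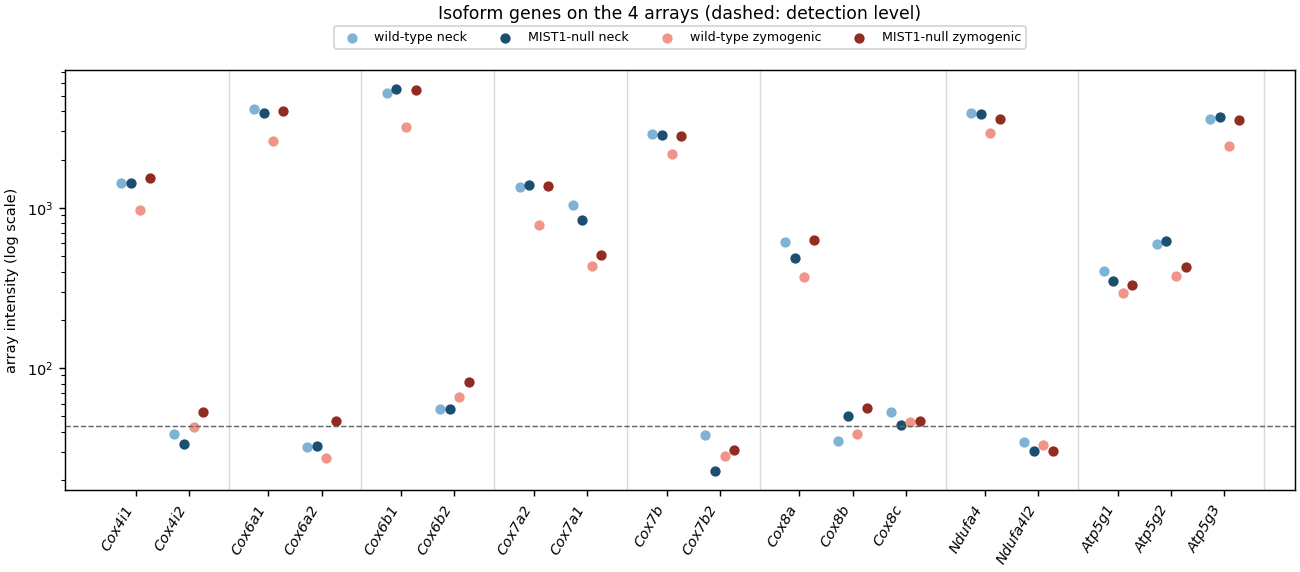
Array intensity (log scale) of the subunits that come in several isoforms, in 4 colours for the 4 arrays, with the detection level of 43.3 dashed. In the main isoforms on the left of each block the wild-type zymogenic point is lowest, Cox7a1 has both zymogenic points below both neck points, and most other tissue isoforms lie near the dashed line; heights compare the arrays of a gene and not different genes.

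Complex V makes ATP by rotation, and all 17 of its subunits were lower in wild-type zymogenic than in wild-type neck cells, where 50.6% of detectable genes were. The sizes were moderate, with a median of -0.51, and the 3 of 17 (17.6%) at 1.5-fold or more were close to the 16.7% of detectable genes. In the F1 head, the alpha subunit Atp5a1 read 1909, 2045, 1338 and 2055, the catalytic beta subunit Atp5b read 1794, 1944, 1256 and 1900, and the gamma shaft Atp5c1 read 1661, 1978, 1254 and 2031. These 3 had a low wild-type zymogenic array and genotype differences in zymogenic cells of 0.62, 0.60 and 0.70, all at least 1.5-fold. The 5 F1 subunits had a median of 0.60.

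The c ring, the turning part in the membrane, is encoded by 3 genes for the same mature protein. Atp5g3 read 3573, 3681, 2445 and 3542, with a single low array. Atp5g1, at 403, 348, 295 and 332, and Atp5g2, at 599, 620, 373 and 426, were lower in both zymogenic arrays. Their genotype differences in zymogenic cells were 0.53, 0.17 and 0.19, and the cell type differences in MIST1-null mice were -0.06, -0.07 and -0.54.

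The stalk that holds the head in place showed the smallest shifts of complex V, with medians of -0.34 for cell type in wild-type mice and 0.16 for genotype in zymogenic cells. Atp5o, which confers oligomycin sensitivity, read 886, 673, 788 and 714; it was higher in both wild-type arrays and was the 1 member of the complex below 0 for genotype in zymogenic cells, at -0.14. Coupling factor 6, Atp5j, ranged from 808 to 972. Of the membrane subunits, Atp5j2 (subunit f) read 3439, 3293, 1960 and 3214 and had the largest genotype difference of the complex, 0.71. Atp5l (subunit g), measured by 6 probe sets, read 5262, 5483, 3831 and 5168.

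**Figure D4:**
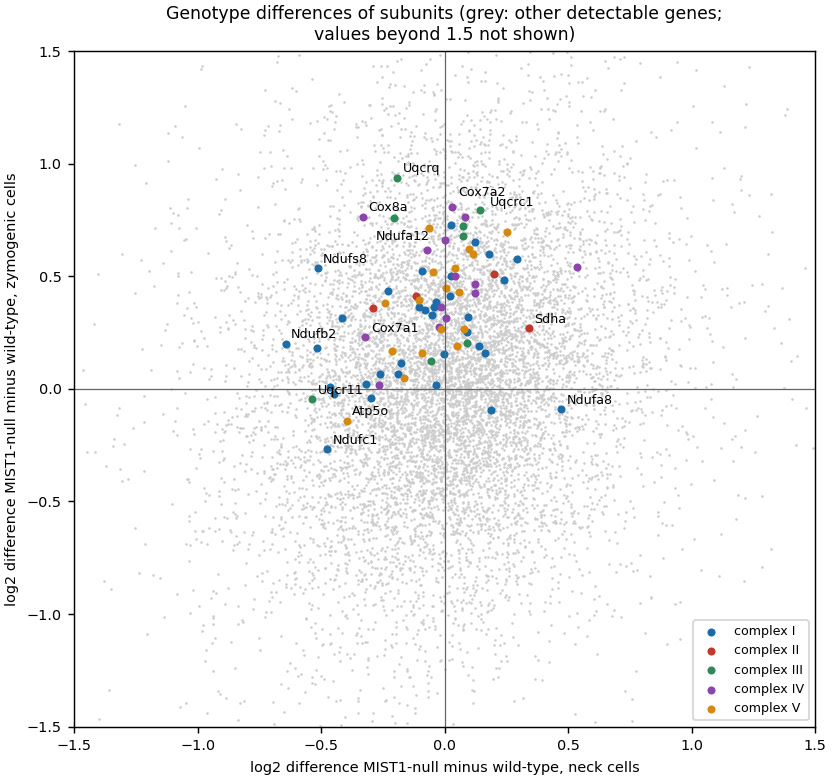
Log2 difference MIST1-null minus wild-type of each detectable subunit in neck cells (horizontal) and zymogenic cells (vertical), coloured by complex, over all detectable genes in grey. Subunits sit above the horizontal line for 70 of 77 and on both sides of the vertical line, 35 right and 42 left.

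Of the 8 assembly factors that the symbol rule takes in, 4 were lowest in wild-type zymogenic cells. Ndufaf5, which modifies a complex I subunit during assembly, read 261, 186, 114 and 175, and its differences of -1.19 for cell type in wild-type mice and 0.62 for genotype in zymogenic cells were the widest of the 8. Ndufaf2 read 493, 524, 326 and 320 and Ndufaf7 read 74.4, 78, 44.1 and 53, both lower in zymogenic cells of either genotype. Ndufaf4 went the other way, at 407, 429, 502 and 523. Ndufaf1 ranged from 68.6 to 128, Ndufaf3 from 113 to 142, Ndufaf6 from 42.7 to 51.5, and the supercomplex factor Cox7a2l from 162 to 230. The 21 detectable assembly factors outside the rule had medians of -0.20 for cell type in wild-type mice and 0.15 for genotype in zymogenic cells. Sdhaf1, an assembly factor of complex II, was highest in wild-type zymogenic cells, at 315, 356, 631 and 350, the reverse of Sdhb. Atpaf1, which helps to build the F1 head, was 1.24 higher in wild-type zymogenic than in neck cells, at 98.7, 105, 233 and 161.

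The subunits made in the mitochondrion could be followed in 2 genes. COX2, the subunit of complex IV that accepts electrons from cytochrome c, read 8070, 7829, 7177 and 7154, and ND3 of complex I read 6711, 6059, 5477 and 5979. Their arrays were close together: the cell type differences in wild-type mice were -0.17 and -0.29 and the genotype differences in zymogenic cells 0.00 and 0.13. The level at which a probe set saturates is unknown here.

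Companion pathways were read in the same way, all with 1 list value per comparison and with the shared wild-type zymogenic array. The 12 enzymes of the tricarboxylic acid cycle, which supplies NADH and succinate, had a median of -0.78 for cell type in wild-type mice and 0.61 for genotype in zymogenic cells. Ogdh, the first component of 2-oxoglutarate dehydrogenase, read 195, 156, 57.2 and 164, a low wild-type zymogenic array with differences of -1.77 and 1.51. Citrate synthase, Cs, read 356, 407, 388 and 253 and was lowest in MIST1-null zymogenic cells instead, at -0.61. The 6 carriers and channels, which exchange ATP, ADP and phosphate, had medians of -0.67 and 0.69; the ADP/ATP carrier Slc25a5 read 1338, 1500, 824 and 1365, while the channel Vdac2 read 976, 1097, 1122 and 1170.

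Fatty acid oxidation genes, 13 of them, had medians of -1.01 and 0.42. Cpt1a, which brings fatty acids to the mitochondrion, read 179, 314, 50.9 and 153, higher in MIST1-null mice in both cell types. Glycolysis genes, 9 detectable, had medians of -0.47 and 0.55, so values of this size were not limited to mitochondrial genes. The 73 detectable mitochondrial ribosomal proteins were at -0.43 and 0.13, with differences from -1.49 to 1.36 for genotype in zymogenic cells, and the 21 import genes at -0.13 and -0.12.

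**Figure D5:**
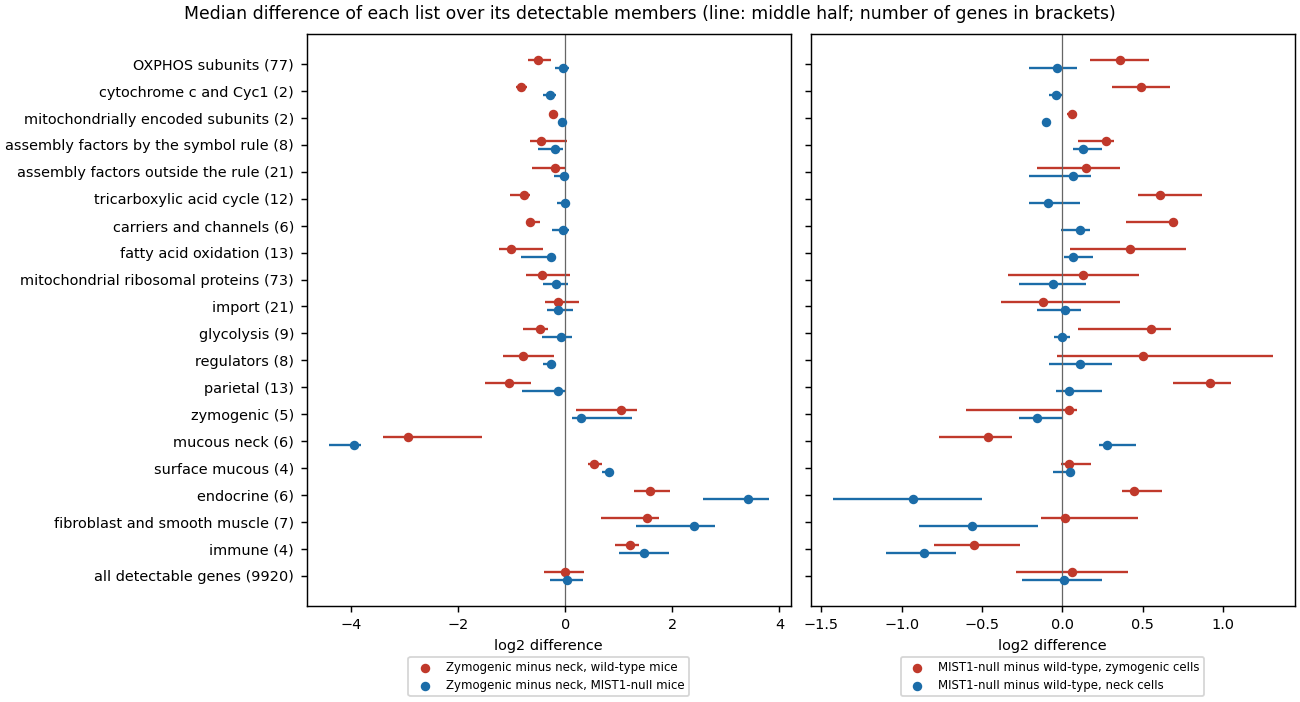
Median log2 difference of each gene list (points) with the range from the lower to the upper quartile (lines), for cell type on the left and genotype on the right; numbers of detectable genes are in brackets. The subunits lie at -0.51 in wild-type mice and 0.36 in zymogenic cells, with the tricarboxylic acid cycle and the parietal markers further out in the same directions, at -0.78 and 0.61 and at -1.05 and 0.92.

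Of 13 regulators of mitochondrial genes on the list, 8 were detectable. Ppargc1a, a coactivator that drives mitochondrial gene expression, read 213, 355, 106 and 696. It was lowest in wild-type and highest in MIST1-null zymogenic cells, 2.71 log2 units apart, and 0.74 higher in MIST1-null neck cells, where the subunits had a median of -0.03. Its relative Ppargc1b read 130, 111, 40.9 and 95.3. Esrrg, an orphan nuclear receptor of oxidative tissues, read 423, 489, 123 and 363, with differences of -1.78 for cell type in wild-type mice and 1.56 for genotype in zymogenic cells. Esrrg is also known from parietal cells. Esrra, at 37.2, 40.6, 42.1 and 44.6, was below the detection level, as were Nrf1, Gabpb1, Tfam and Tfb1m, so their levels could not be ordered. Gabpa, a partner in the ETS factor, read 243, 244, 229 and 195.

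Of the 89 genes found by the rule, 17 had more than 1 probe set. Their probe sets had the same sign in 17 of 17 genes for cell type in wild-type mice, in 13 for genotype in zymogenic cells, in 14 for genotype in neck cells and in 11 for cell type in MIST1-null mice. The largest disagreement was in Ndufb11, whose probe sets lay 1.34 apart for cell type in MIST1-null mice and 0.84 apart for genotype in zymogenic cells, so its read of 1236, 1201, 1022 and 1315 depends on the probe set taken.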

How the data were processed

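The data are 4 Affymetrix Mouse Gene ST 1.0 arrays, 1 per group. Per the design text, DNase I treatment came before amplification and dChip was used to compare arrays; per the labels, RNA pooled from several mice was amplified. The deposited values are linear intensity values per probe set, made by the authors; how background, probe summary and scaling were handled is not stated in the labels. Of 35512 probe sets, the 21789 with exactly 1 gene in the platform annotation were used. A gene was read from its probe set with the highest mean. Values were floored at 1.0 and taken as log2; between 40 and 48 values of an array were at the floor. Differences were taken between 2 arrays and counted at 1.5-fold and 2-fold. There was no test, and precision is limited by having 1 array per group.

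Genes were named by a rule: in each complex the extremes of each comparison, members 2-fold apart, isoforms, named catalytic subunits and assembly factors; other members were named to complete a group. Members and lists were chosen with earlier results of these data known. Alternatives were pseudocounts of 32 and 8, median centring, quantile normalization, other detection levels and the mean over probe sets. The difference step was tested on simulated data. Promoter windows are from RefSeq and were matched by gene ID. Python 3.11.15, numpy 2.4.6 and pandas 2.3.3 were used.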

Additional observations from a re-analysis of the deposited data

Results flagged for a closer look

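The genotype difference of the subunits pointed opposite ways by its median in the cell types: 0.36 in zymogenic and -0.03 in neck cells. The same held for complex I, at 0.28 and -0.05, and for complex V, at 0.39 and -0.01. These pairs were listed because their signs differ. The difference was not tested, since each rests on 1 array per group, and the neck values are close to 0.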

How the results depend on the processing

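No paired analysis was possible because each group was 1 array and the labels give no replicate numbers; for the same reason no array could be left out. Over 9 alternatives the subunit median stayed between 0.34 and 0.37 for genotype in zymogenic cells and between -0.55 and -0.49 for cell type in wild-type mice. It ranged from -0.08 to 0.03 for genotype in neck cells, with the sign turned under median centring, and from -0.12 to 0.00 for cell type in MIST1-null mice. The 4 subunits 2-fold apart for cell type in wild-type mice became 1 with a pseudocount of 32 and 1 with the 90th percentile as detection level. The 1 subunit 1.5-fold apart for genotype in neck cells became 2 with median centring, 3 with quantile normalization and 2 with no filter on low values. Wild-type zymogenic cells were lowest for 60 to 63 of 77 subunits over 5 alternatives. In these 5, 71 of 77 subunits kept their sign for genotype in zymogenic cells and 76 for cell type in wild-type mice, against 59 for genotype in neck cells and 57 for cell type in MIST1-null mice. Genes near the detection level had smaller differences with a pseudocount of 32, such as 0.32 for Cox8b in place of 0.54. No replicate error is known for any value.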
